A study of Homo sapiens with 6 samples.

Results

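The 10 genes described here encode the HBO1 histone acetyltransferase complex and its relatives: the scaffold genes JADE1, JADE2 and JADE3, the acetyltransferase gene KAT7, the reader genes ING4 and ING5, the small subunit gene MEAF6, and the alternative scaffold genes BRPF1, BRD1 and BRPF3. They were taken as every probe set that the platform's annotation assigns to exactly 1 of these genes, which gave 39 probe sets of the 49293 on the array that are not array controls. JADE1 had 9 of them, and no probe set was assigned to a member together with another gene. The cells were LX-2, a human line derived from hepatic stellate cells, the fat-storing pericytes of the liver. After 12 h of serum starvation, 3 samples received recombinant human BMP9, the product of GDF2 and a ligand of the TGF-beta family, at 50 ng/ml for 24 h, and the 3 control samples received 0 ng/ml for the same time. Each sample was hybridised to 1 array. All arrays come from a single established line, so nothing here bears on stellate cells of other donors, and the labels call the samples biological replicates without saying how the cultures were separated.

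KAT7, also called HBO1, is a MYST-family enzyme that transfers acetyl groups to histones H3 and H4, and it is known for its part in replication licensing and in transcription. It has little choice of substrate by itself: a scaffold protein holds it together with MEAF6 and with ING4 or ING5, whose PHD finger reads methylated histone H3. The JADE scaffolds steer the enzyme towards histone H4 and the BRPF scaffolds towards histone H3. JADE1 is also known as a partner of the von Hippel-Lindau protein VHL in kidney cells, and exists in a long and a short protein form.

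Expression is given per probe set on the log2 scale, so a difference of 1 is a doubling of signal. The array medians lay between 3.55 and 3.57, and Pearson's r across probe sets was 0.993 to 0.994 within BMP9, 0.992 to 0.994 within control and 0.990 to 0.993 between the groups. Of 5 known BMP target genes, each read by its brightest probe set, 2 rose, the inhibitory SMAD gene SMAD6 by 3.01 (SE 0.099, limma adjusted p = 2.32e-07) and ID3, an inhibitor of basic helix-loop-helix factors, by 1.63 (SE 0.12, limma adjusted p = 8.74e-05). ID2, ID1 and SMAD7 did not pass in these probe sets, with differences of 1.21, 0.14 and 0.21 (limma adjusted p = 0.0532, 0.629 and 0.447). Another ID1 probe set did pass, higher by 3.21 (SE 0.18, limma adjusted p = 1.70e-05), the largest rise among all 49293 probe sets. It averaged 6.01 with BMP9 and 2.80 in control. Of all 14 probe sets of the 5 genes, 5 passed, all of them higher, in ID1, ID3 and SMAD6. Levels of different probe sets cannot be set against each other and there are no detection calls, so whether the cells carry the marks of stellate cells and lack those of other liver cells was not tested. Of 10 stellate or mesenchymal, 5 hepatocyte, 4 endothelial, 4 leukocyte and 4 bile duct markers, 0 passed by limma's adjusted p, where 0.529% of all genes did. An unadjusted p under 0.05 was found in 1, 2, 0, 0 and 1 of them, where 12.1% of all genes had one. The array's own poly-A control probe sets were lower by 0.60 on the BMP9 arrays and its hybridisation controls by 0.20, so scaling the arrays to them moved the median difference of all probe sets to 0.61 and 0.21, against 0.0078 on the deposited scale. Differences are given on the deposited scale; with poly-A scaling, every negative one smaller in size than 0.60 turns positive.

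JADE1 was chosen because its brightest probe set was already known to be lower with BMP9, so its values are a description and carry no test. In the probe set 11725069_s_at, which the annotation ties to the transcript NM_199320.2 (the long form by general knowledge, not by the annotation), JADE1 stood at 6.65, 6.53 and 6.63 on the BMP9 arrays, against 8.28, 8.27 and 8.28 on the control arrays. The 3 BMP9 arrays lay far below the 3 control arrays, which had an SD of 0.0072 (n = 3). The difference, BMP9 minus control, was -1.67 (SE 0.076, 95% interval -1.84 to -1.51), a 3.19-fold fall. It remained at -1.47 with hybridisation and -1.07 with poly-A scaling. The second brightest probe set, 11725071_at, read 5.51, 5.54 and 5.67 with BMP9, against 7.31, 7.37 and 7.19 in control. Here too the groups did not overlap, and the difference was -1.71 (SE 0.085, 95% interval -1.90 to -1.53), a 3.28-fold fall. Ordered from the lowest of all 49293 differences, these probe sets held places 5 and 4.

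The threshold was a limma adjusted p under 0.05 over all 49293 probe sets, which 202 passed, or 0.41%; 136 of these were lower, or 0.276%, and 66 higher, or 0.134%. Scaling to the hybridisation controls gave 9290 higher and 147 lower, scaling to the poly-A controls 47423 higher and 26 lower, and leaving out any array but control replicate 2 gave 88 to 127 in all. Of the 39 probe sets of the complex, 3 passed, all of them lower and all of them JADE1; since JADE1 was chosen from this comparison, nothing is read from that count. The third was 11747359_a_at, at 4.47, 4.29 and 4.64 with BMP9, against 4.96, 5.27 and 5.43 in control. The groups stood apart by a smaller step, a difference of -0.75 (SE 0.13, 95% interval -1.04 to -0.47), or 1.69-fold. This call ended with poly-A scaling (-0.15) and when any single array other than control replicate 1 was left out, with differences of -0.84 to -0.65 in those fits.

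**Figure D1:**
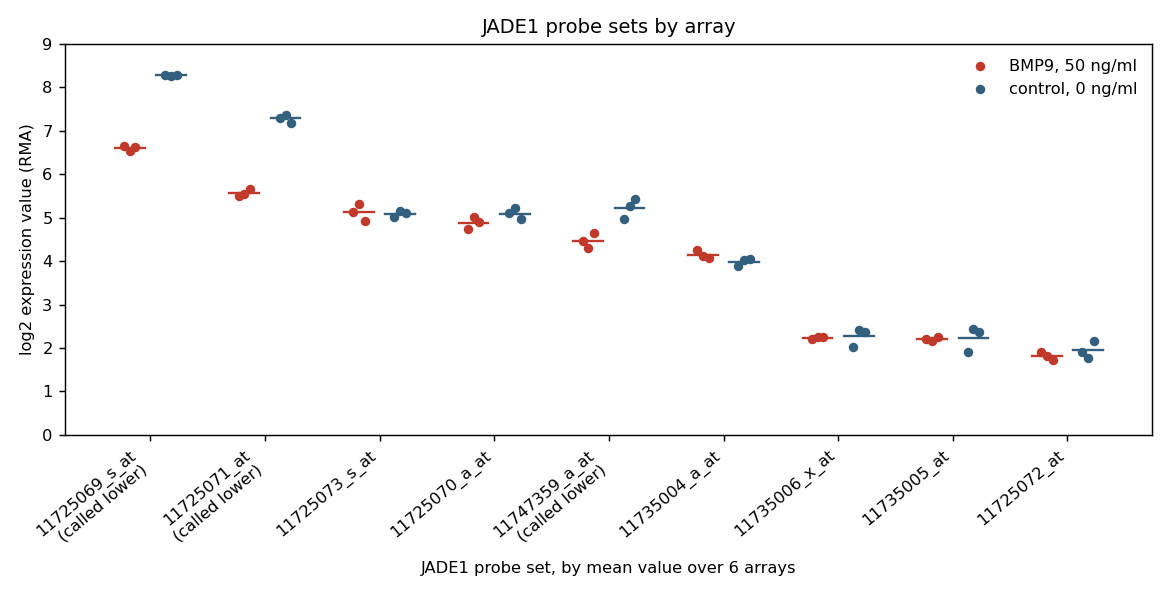
Log2 expression values of the 9 JADE1 probe sets (vertical axis) on each array, with the 3 BMP9 arrays left of the 3 control arrays in each pair and a line at each group mean. The probe sets 11725069_s_at and 11725071_at separate the groups by 1.67 and 1.71, 11747359_a_at by 0.75 in size, and the other 6 lie close together.

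The remaining 6 JADE1 probe sets did not pass. The probe set 11725073_s_at read 5.13, 5.31 and 4.93 with BMP9, against 5.03, 5.14 and 5.10 in control, and its groups overlapped (0.032, 95% interval -0.19 to 0.25). The interval lies wholly above the falls of the brightest probe sets. The probe set 11725070_a_at read 4.74, 5.01 and 4.90 with BMP9, against 5.10, 5.23 and 4.96 in control, a difference of -0.21 with overlap (95% interval -0.43 to 0.0041). In 11735004_a_at the order was turned round, at 4.26, 4.11 and 4.08 with BMP9, against 3.89, 4.02 and 4.04 in control. All 3 BMP9 arrays were above the control arrays there, by 0.17 (95% interval -0.022 to 0.36), a difference that was called higher with either scaling to control probe sets (0.37 and 0.77). The last 3 were dim: 11735006_x_at and 11735005_at, tied to the transcript NM_024900.3 (the short form, likewise by general knowledge), averaged 2.23 and 2.21 with BMP9 and 2.28 and 2.24 in control, and 11725072_at averaged 1.82 with BMP9 and 1.95 in control. The array's 23 background probe sets, graded by GC content, had a median level of 2.39 (1.67 to 10.0), so these 3 cannot be placed above background and say little about the short form.

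Within an array the 2 brightest JADE1 probe sets kept their distance. Signal in 11725071_at minus that in 11725069_s_at was -1.14, -0.99 and -0.96 with BMP9, against -0.98, -0.90 and -1.09 in control, so the difference of these differences was -0.040. For 11725073_s_at the same distance was -1.51, -1.22 and -1.70 with BMP9, against -3.26, -3.13 and -3.18 in control. The gap thus narrowed by 1.71 on the log2 scale, with no overlap between the groups. It narrowed by 0.92 for 11747359_a_at, 1.46 for 11725070_a_at and 1.84 for 11735004_a_at, again without overlap. The dim 11735006_x_at, 11735005_at and 11725072_at narrowed by 1.63, 1.64 and 1.54, likewise without overlap. Since JADE1 was chosen for the fall of 11725069_s_at, a probe set without change must narrow by about that fall. The narrowing is thus set by the choice, and nothing more is read from it. These distances do not change when a constant is added to all values of an array, as in the scalings to control probe sets. They show unequal change of signal only: all 9 JADE1 probe sets lie below the highest background level of 10.0, and how far each lies above its own background was not tested. Where the probes of each set lie in the JADE1 transcripts was not analysed here, so which transcripts each one reads was not tested.

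Divided probe sets were common among genes with a call. Of 131 genes with at least 2 probe sets and at least 1 call, JADE1 among them, 4 had every probe set called. The median gene had 33.3% of its probe sets called, a share that depends on how many a gene has. Of 43 genes besides JADE1 with 5 or more probe sets and a call, 4 had 3 or more called. The JADE1 differences ran from -1.71 to 0.17, a range of 1.88. Since JADE1 was chosen for its fall, that range is set by the choice. Neither it nor JADE1's share of calls is compared with other genes.

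RefSeq gives JADE1 5 windows around annotated start sites on the plus strand of chromosome 4, each 250 bases before to 50 after a start. They were searched on both strands for GGCGCC, the GC-rich element that SMAD1 and SMAD5 bind in BMP-responsive genes, for CAGACA, which holds the core of the SMAD3 and SMAD4 element, and for CANNTG, the E-box of basic helix-loop-helix factors; none of these motifs contains another. GGCGCC was found in 1 of the 5 windows and CAGACA in another 1, and these are printed because they hold such a match (GRCh38.p14, in capitals, 5′ to 3′).
JADE1 start 2, chr4:128809728-128810027: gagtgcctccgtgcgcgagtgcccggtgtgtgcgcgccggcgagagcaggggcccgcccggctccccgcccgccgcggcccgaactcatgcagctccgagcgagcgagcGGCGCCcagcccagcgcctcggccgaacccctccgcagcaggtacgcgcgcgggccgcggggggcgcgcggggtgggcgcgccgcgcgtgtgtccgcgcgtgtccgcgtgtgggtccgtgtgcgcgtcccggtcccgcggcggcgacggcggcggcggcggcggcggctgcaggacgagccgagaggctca
JADE1 start 5, chr4:128811594-128811893: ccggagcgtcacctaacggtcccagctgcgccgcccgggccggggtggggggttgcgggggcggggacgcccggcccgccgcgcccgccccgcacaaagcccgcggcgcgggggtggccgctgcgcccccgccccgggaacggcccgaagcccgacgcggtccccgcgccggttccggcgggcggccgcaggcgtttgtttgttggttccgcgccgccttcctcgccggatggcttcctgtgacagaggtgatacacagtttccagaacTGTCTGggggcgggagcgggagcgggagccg
The capitals in the first line are GGCGCC and in the second TGTCTG, the reverse complement of CAGACA. Of all 35116 such windows in the RefSeq table, 19.2% held GGCGCC, 16.9% CAGACA and 68.7% CANNTG, which was present in 3 of the 5 JADE1 windows, 2 of them largely the same bases. Over the 24 windows of the 10 genes, 9 held GGCGCC, 3 held CAGACA and 13 held CANNTG. Some windows of a gene overlap, as both JADE3 windows do with the same GGCGCC matches, so a match can count more than once. A match describes the letters and is not a binding site.

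The other 9 genes of the complex had 30 probe sets, of which 0 passed by limma's adjusted p and 3 had an unadjusted p under 0.05, where 11.4% of all probe sets did. Their differences ran from -0.39 to 0.15, with a median of -0.017, against 0.0078 over all probe sets. The groups did not overlap in 3 of the 30, and in 17.3% of all probe sets. Over all 39, the BMP9 arrays lay wholly below the control arrays in 5 (8.17% of all probe sets) and wholly above in 2 (9.09% of all probe sets), and nothing is read from these counts. For the 30 alone, the lowest lower bound of the 95% intervals was -0.61 and the highest upper bound 0.38. Each of these intervals lies above the falls of the 2 brightest JADE1 probe sets. However, 3 of the 30 averaged at or below the median background level of 2.39, where a fall of that size could not show. Others lay too little above that level to show it in full, such as ING5 11757066_s_at at 2.83 and JADE3 11721972_at at 3.41 in control.

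JADE2, the second scaffold gene, came nearest to JADE1. Its probe set 11720570_a_at read 7.22, 7.12 and 6.95 with BMP9, against 7.50, 7.61 and 7.37 in control. All BMP9 arrays were below the control arrays, by a difference of -0.39 (SE 0.097, 95% interval -0.61 to -0.18) that missed the threshold. It passed as lower when probe sets under a mean of 5 were left out and with an intensity trend and robust prior, and it was 0.21 with poly-A scaling. The brightest JADE2 probe set, 11758683_s_at, read 7.96, 7.71 and 7.77 with BMP9, against 8.13, 7.96 and 8.30 in control. The groups overlapped by a narrow margin at a difference of -0.31 (95% interval -0.55 to -0.082). The other 4 JADE2 probe sets differed by -0.072 to 0.077, so the 2 brightest had the lowest differences. Neither of these 2 passed on the deposited scale.

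JADE3 is the scaffold gene on the X chromosome. Its brightest probe set, 11721971_at, read 5.54, 5.59 and 5.76 with BMP9, against 5.60, 5.56 and 5.62 in control, with overlapping groups and a difference of 0.038 (95% interval -0.15 to 0.22). Its other probe sets differed by -0.013 and -0.20 at levels of 3.40 and 2.05 with BMP9 and 3.41 and 2.25 in control.

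The acetyltransferase gene KAT7 was read by 5 probe sets that differed by -0.10 to 0.15. The brightest, 200049_PM_at, stood at 7.33, 7.37 and 7.36 with BMP9, against 7.49, 7.31 and 7.26 in control. These groups overlapped and their means were 7.35 in each (0.00083, 95% interval -0.19 to 0.19). The second, 11752292_s_at, read 7.34, 7.24 and 7.17 with BMP9, against 7.11, 7.17 and 7.25 in control, also with overlap (0.073, 95% interval -0.11 to 0.25). No KAT7 interval reached below -0.33, so a fall of the size seen in JADE1 lies outside all 5. However, 11753890_a_at and 11757691_a_at averaged only 3.65 and 3.57 in control. So near the median background level of 2.39, such a fall could not show in full.

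ING4, an H3-tail reader and tumour suppressor gene, had small differences of opposite sign in its 2 probe sets. In 11742299_a_at it read 6.80, 6.63 and 6.59 with BMP9, against 6.82, 6.87 and 6.91 in control, a difference of -0.19 with no overlap (95% interval -0.38 to -0.0062). In 11720806_a_at it read 6.58, 6.71 and 6.67 with BMP9, against 6.47, 6.55 and 6.48 in control, a difference of 0.15 with no overlap (95% interval -0.021 to 0.32). Neither passed on the deposited scale, and both were positive with poly-A scaling. Groups without overlap were found in 17.3% of all probe sets. Its paralogue ING5 had 6 probe sets that all overlapped, with differences of -0.14 to 0.079 and intervals from -0.32 to 0.38. The brightest ING5 probe set, 11760003_x_at, read 5.62, 5.56 and 5.71 with BMP9, against 5.67, 5.74 and 5.85 in control.

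MEAF6, the small subunit shared by the MYST complexes of this type, had 3 probe sets with differences of -0.052 to -0.021, and 2 of them were at levels of 2.11 and 1.93 with BMP9 and 2.14 and 1.96 in control. The brighter one, 11746164_a_at, read 4.57, 4.79 and 4.67 with BMP9, against 5.07, 4.55 and 4.55 in control. Control replicate 1 stood above the other 5 arrays there, and the groups overlapped. The signs of all 3 turned with poly-A scaling.

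Among the BRPF scaffolds, which lead KAT7 and its relatives to histone H3, no probe set separated the groups. BRD1, also called BRPF2, read 6.67, 6.71 and 6.57 with BMP9, against 7.02, 6.66 and 6.78 in control, in 11731093_s_at (-0.17, 95% interval -0.40 to 0.049). Its other 2 probe sets differed by 0.10 and -0.027. BRPF1 had 1 probe set, at 3.91, 3.65 and 3.73 with BMP9, against 3.72, 3.87 and 3.73 in control (-0.010, 95% interval -0.21 to 0.19). BRPF3 had 1 probe set as well, at 4.67, 4.66 and 4.74 with BMP9, against 4.75, 4.53 and 4.61 in control (0.059, 95% interval -0.13 to 0.24).

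**Figure D2:**
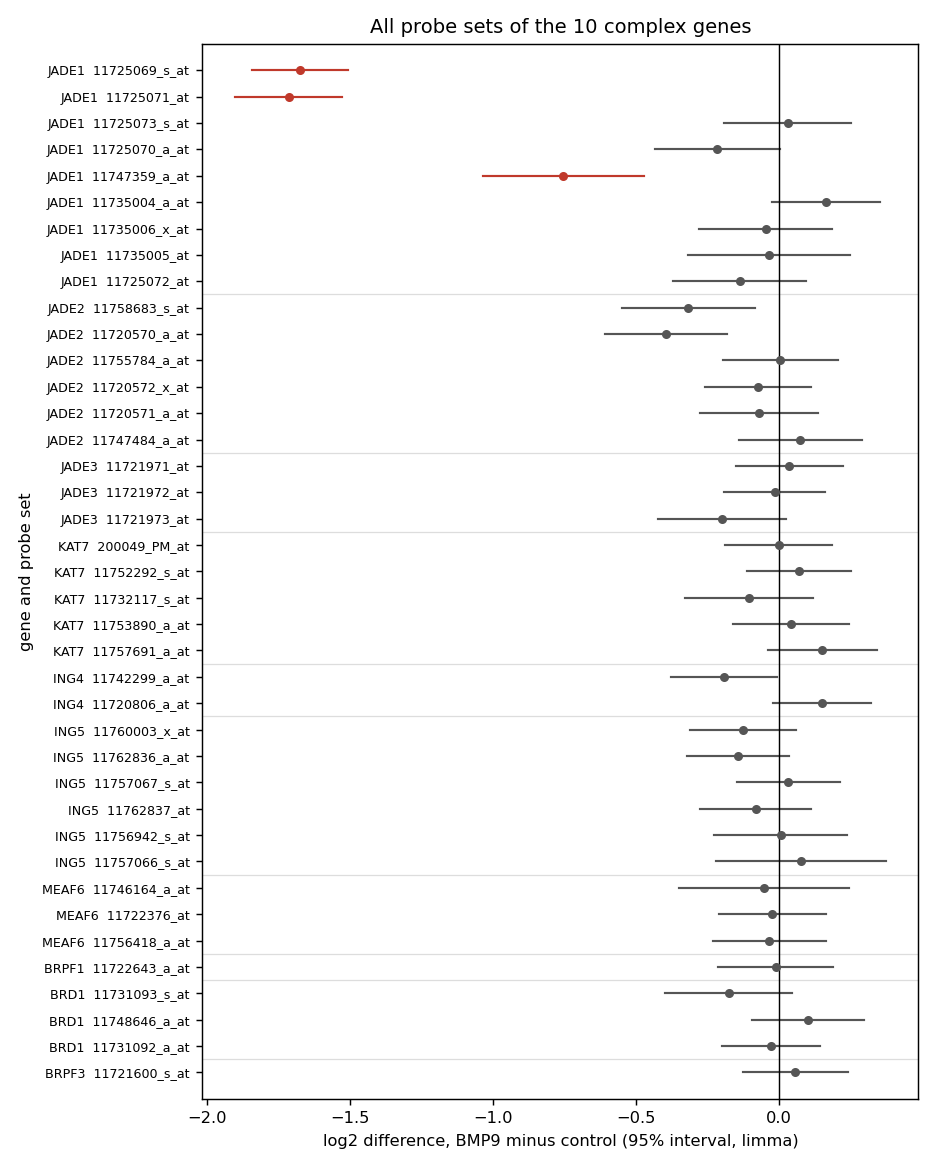
Log2 differences, BMP9 minus control, of all 39 probe sets of the 10 genes (horizontal axis) with 95% limma intervals, grouped by gene and ordered by level within each. The 3 JADE1 probe sets past the threshold are red, and the intervals of all 30 probe sets of the other genes lie above -0.61. On the poly-A scale, 21 of the 36 others change sign.

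Related enzymes and cofactors were then read from lists, each gene by its brightest probe set. Of 29 genes of the other MYST complexes (KAT5, KAT6A, KAT6B and KAT8 with their subunits), 0 passed by limma's adjusted p, where 0.529% of all 18132 genes did. The unadjusted p was under 0.05 in 5 of the 29, against 12.1% of all genes. The median difference was -0.067, against 0.014 over all genes, with 21 negative differences that lie within the poly-A shift. In 8 of the 29 all BMP9 arrays were below the control arrays and in 0 above, where 8.49% of all genes had such groups below and 10.3% above, or 18.8% either way. EPC2, a scaffold of the NuA4 complex around KAT5, had the largest difference in the list, at 9.50, 9.52 and 9.37 with BMP9, against 10.01, 9.82 and 9.84 in control. The groups did not overlap, and the difference of -0.43 (SE 0.086) missed the threshold (limma adjusted p = 0.0801). EPC2 passed when probe sets under a mean of 5 were left out (limma adjusted p = 0.0109) and with an intensity trend and robust prior (limma adjusted p = 0.00416). Its paralogue EPC1 differed by -0.28 (SE 0.087, limma adjusted p = 0.263) and the KAT5 complex's ATPase gene EP400 by 0.27 (SE 0.14, limma adjusted p = 0.490).

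Replication licensing genes, mostly loaders and subunits of the MCM helicase with which KAT7 is known to work, held 16 members. Of these 0 passed by limma's adjusted p (0.529% of all genes) and 3 had an unadjusted p under 0.05 (12.1% of all genes). In 2 all BMP9 arrays were below the control arrays (8.49% of all genes) and in 3 above (10.3% of all genes). The median difference was 0.070, with 4 negative. The origin recognition genes ORC3 and ORC5 differed by -0.32 each (SE 0.095 and 0.087, limma adjusted p = 0.237 and 0.196), with all BMP9 arrays below the control arrays. ORC5 passed when dim probe sets were left out (limma adjusted p = 0.0445). The helicase subunit gene MCM3 read 9.12, 9.18 and 9.28 with BMP9, against 8.99, 9.08 and 8.85 in control. All its BMP9 arrays were above the control arrays, by 0.22 (SE 0.088, limma adjusted p = 0.382).

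Of 12 other histone acetyltransferase and class I deacetylase genes 10 were measured; NAA40 and NCOA3 were not analysed here. By limma's adjusted p 0 passed (0.529% of all genes), and 3 had an unadjusted p under 0.05 (12.1% of all genes). The same 3 were the ones in which all BMP9 arrays were below the control arrays (8.49% of all genes), and 0 had them above. KAT2B, also known as PCAF, read 3.02, 2.69 and 2.91 with BMP9, against 3.47, 3.21 and 3.35 in control. The groups did not overlap and the difference was -0.47 (SE 0.10, limma adjusted p = 0.108). The coactivator gene EP300 differed by -0.39 (SE 0.091, limma adjusted p = 0.134) and NCOA1 by -0.27 (SE 0.086, limma adjusted p = 0.277), also without overlap. The median of the list was 0.0015. The deacetylase genes HDAC1, HDAC2, HDAC3 and HDAC8 differed by 0.090, 0.015, 0.00046 and 0.029 and all overlapped.

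Of JADE1's 3 known partners outside the complex 0 passed by limma's adjusted p (0.529% of all genes). An unadjusted p under 0.05 was found in 0 (12.1% of all genes), and nothing is read from counts over so few genes. VHL, the tumour suppressor that binds JADE1, differed by -0.030 (SE 0.092, limma adjusted p = 0.930). CTNNB1, which encodes beta-catenin, differed by -0.071 (SE 0.078, limma adjusted p = 0.777) and the nephrocystin gene NPHP4 by 0.16 (SE 0.087, limma adjusted p = 0.528). The 3 nearest protein-coding genes on each side of JADE1 on chromosome 4, by order in the RefSeq table, were ABHD18, LARP1B and PGRMC2 on one side and SCLT1, C4orf33 and PCDH10 on the other. By limma's adjusted p 0 of their probe sets passed (0.41% of all probe sets). In its brightest probe set, 1 of the 6 genes had an unadjusted p under 0.05 (12.1% of all genes). PGRMC2, a membrane haem-binding protein gene next to JADE1, read 6.25, 6.20 and 6.24 with BMP9, against 6.52, 6.32 and 6.47 in control. The groups did not overlap, at a difference of -0.21 (SE 0.082, limma adjusted p = 0.382). ABHD18 had no overlap either, but with the BMP9 arrays above, by 0.17 (SE 0.078, limma adjusted p = 0.451). Its levels were 2.43 with BMP9 and 2.26 in control. Of all genes, 18.8% had groups without overlap. SCLT1, the neighbour on the other side, differed by -0.026 (SE 0.076, limma adjusted p = 0.928).

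**Figure D3:**
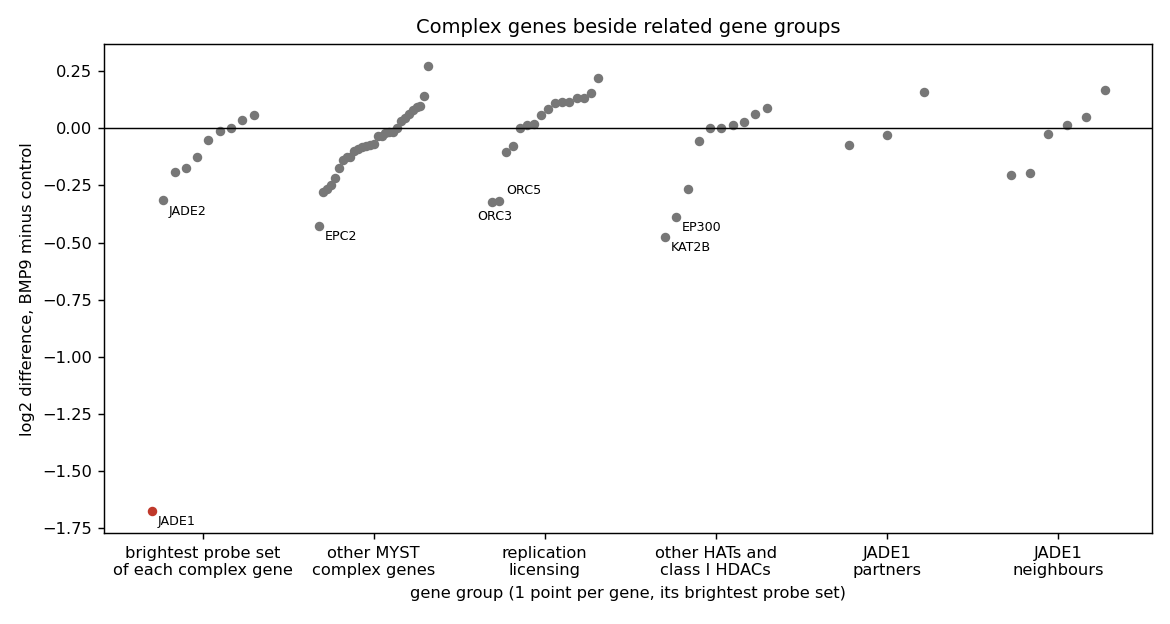
Log2 differences, BMP9 minus control (vertical axis), of the brightest probe set of each gene in the 10-gene set and in the related groups, ordered by size within a group. JADE1, in red at -1.67, was chosen for its fall, and the others lie between -0.47 and 0.27, a range in which negative values turn positive with poly-A scaling.

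The genes whose profile over the 6 arrays was most like that of 11725069_s_at were found by the root-mean-square distance between log2 values taken from each probe set's control mean, among probe sets with a group mean of at least 6. The nearest was the transcription factor gene MAF in 11762471_at, at a distance of 0.076, where JADE1's own 11725071_at lay at 0.082. MAF read 6.10, 6.07 and 6.09 with BMP9, against 7.80, 7.81 and 7.92 in control, a difference of -1.76. The corepressor gene RUNX1T1 followed at a distance of 0.14, then RGMA, which encodes a BMP co-receptor, at 0.23, the calpain gene CAPN6 at 0.26 and the collagen gene COL3A1 at 0.28. Their differences were -1.49, -1.45, -1.34 and -1.30. They were picked for this likeness over 6 arrays in 2 groups, which any gene with a similar fall would share.

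**Figure D4:**
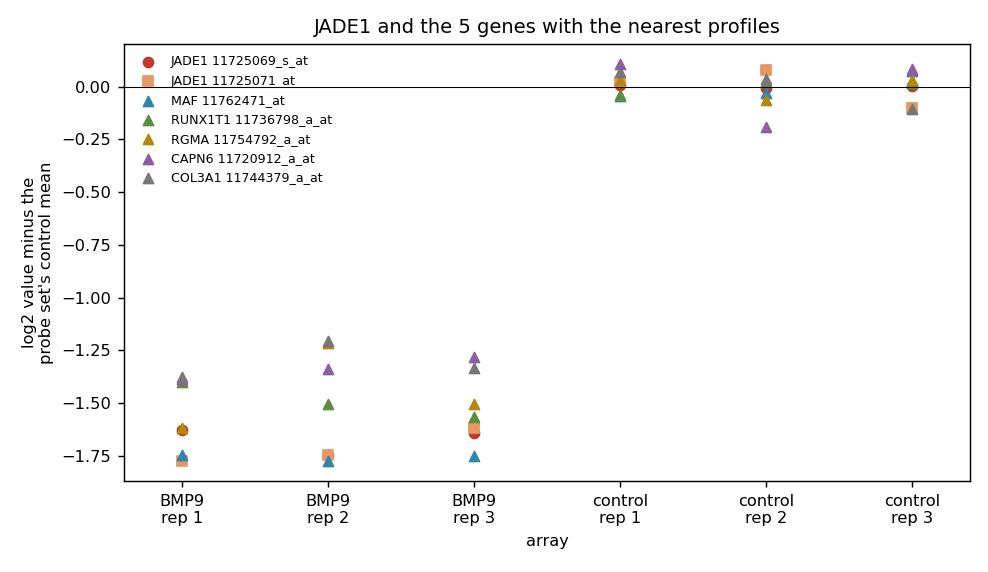
Log2 values minus each probe set's control mean (vertical axis) on the 6 arrays, for the 2 brightest JADE1 probe sets and the 5 genes with the nearest profiles. All 7 probe sets lie well below 0 on the BMP9 arrays and near 0 on the control arrays, with group differences from -1.76 for MAF to -1.30 for COL3A1.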

How the data were processed

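Total RNA of 3 BMP9 and 3 control samples was hybridised to 1 Affymetrix 3′ expression array each. The authors deposited 1 log2 value for each probe set and array, made with RMA per the submitters' processing notes. No source used here names the RMA software or its settings, and the log base was taken from RMA's usual output. RMA quantile-normalises arrays, which largely removes a change shared by most transcripts. Of 49395 probe sets, 102 array controls were left out; 44988 of the rest carried 1 gene symbol, 1832 several and 2473 none.

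All 49293 others were fitted in limma 3.58.1 (lmFit, eBayes, no covariate, R 4.3.3), BMP9 minus control, with Benjamini-Hochberg adjustment over all of them, a threshold of 0.05 and moderated SE and 95% intervals. Degrees of freedom were 4 residual and 6.71 prior. Precision is limited by having 3 arrays a group, and a p-value reflects how these samples scatter, which may be technical. Any 2 arrays shared at most 0.00405% identical values.

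Listed genes were read by their brightest single-gene probe set. Named were all members, any listed gene past the threshold or else the 3 largest differences of a list, the 5 nearest profiles and the 3 neighbours on each side. The members and lists were chosen with earlier results of these data known. Alternatives were the replicate block, quantile normalisation, median centring, scaling to control probe sets, a minimum mean of 5, a trend prior, 1 probe set per gene, no shared-probe sets, and each array left out. Figures used matplotlib 3.10.9.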

Additional observations from a re-analysis of the deposited data

How the results depend on the processing

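The fall of JADE1's brightest probe set kept its direction and its call under every alternative in which the probe set was present, from -1.70 to -1.64 with any array left out to -1.07 with poly-A scaling. Leaving out probe sets with shared probes removes it, and 2 JADE1 probe sets still passed there. The range of JADE1 differences was 1.75 to 1.96 over the alternatives, 1.81 to 1.96 with an array left out. The 1.75 covers only the 3 JADE1 probe sets left by a minimum mean of 5, and 6 were left without shared probes. The number of probe sets past the threshold, 202, was 9437 with hybridisation scaling (9290 higher and 147 lower, against 66 and 136), 47449 with poly-A scaling (47423 and 26), 449 with a minimum mean of 5, 429 with a trend and robust prior, 124 with 1 probe set per gene and 88 to 137 with an array left out. For the complex the count of 3 became 6 with hybridisation scaling, 36 with poly-A scaling and 1 with 1 probe set per gene, and for JADE1 alone 8 and 1 in the last 2 of these. With an array left out both counts were 2 to 3. The other MYST list, at 0, had 2 with hybridisation scaling, 25 with poly-A scaling, 1 with the minimum mean and 1 with the trend prior. The licensing list, at 0, had 6, 14 and, with the minimum mean, 1. The list of other acetyltransferases and deacetylases, at 0, had 7 with poly-A scaling. All 3 lists stayed at 0 whichever array was left out. The scalings add a constant to every probe set on an array, which sets these counts; the cause of the other shifts was not tested.

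With the replicate number as a block, 160 probe sets passed and JADE1 kept 3, a change in no call of the complex. Deviations of same-numbered arrays from their group means correlated with r of -0.0017, 0.034 and -0.023, so no shared deviation was seen. Whether same-numbered cultures were handled together cannot be told from these values. Without detection calls, nothing can be said of probe sets near background.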
